A study of Mus musculus with 3 samples.

Results

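The ARID genes encode nuclear proteins that share a DNA-binding fold, the AT-rich interaction domain. Described here are 9 of them (Arid3a, Arid3b, Arid1a, Arid1b, Arid2, Arid4a, Arid4b, Arid5a and Arid5b), chosen by gene symbol from a list of names. The rule used no measured value, but the choice was made with earlier results of these data known. All 9 were found among the 51912 genes in the files. They were followed in single-cell RNA sequencing of the mouse intestinal epithelium, in 2 libraries from Arid3a cKO mice and 1 library from WT mice. The 10x method used here reads transcripts from their 3′ ends and marks every captured molecule with a unique molecular identifier (UMI), so that a UMI stands for a molecule and UMI numbers do not grow with transcript length.

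All mice carried VillinCreERT2, a Cre recombinase that is driven by the Villin promoter in the intestinal epithelium and is switched on by tamoxifen. WT mice carried it alone, and Arid3a cKO mice carried it together with 2 floxed Arid3a alleles (Arid3a fl/fl). Both genotypes were given tamoxifen when 8 to 10 weeks old, and the intestine was taken 1 month after the first dose. Crypts were dissociated and sorted for living cells with Epcam on their surface and without CD45 or CD31. How many mice went into a library is not given in the sources used here, so the spread between libraries may be partly technical. With 1 WT library, the genotype tests below assume that it varies as the Arid3a cKO libraries do.

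Proteins of the family do different work on chromatin. ARID3A, also called Bright, was first known as an activator of immunoglobulin heavy chain transcription in B cells, and ARID3B is its close relative. ARID1A and ARID1B are alternative subunits of the BAF chromatin-remodelling complex, and ARID2 belongs to the related PBAF complex. ARID4A and ARID4B bind the retinoblastoma protein and belong to SIN3 histone deacetylase complexes. ARID5B works with the histone demethylase PHF2, and ARID5A is best known for binding and stabilising cytokine mRNAs. In the intestine, stem cells (ISCs) at the crypt base feed transit-amplifying (TA) cells, which divide and give rise to absorptive enterocytes and to secretory goblet, Paneth, enteroendocrine (EEC) and tuft cells.

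The nearest relatives in the list, Arid3a and Arid3b, are shown here over part of their best matching coding stretch, because reads from near-identical genes could be counted for the wrong one. In the GENCODE M21 annotation (GRCm38), Arid3a (ENSMUSG00000019564) is at chr10:79927043-79955018 on the plus strand and Arid3b (ENSMUSG00000004661) is at chr9:57790353-57836793 on the minus strand. The stretch shown has 300 bases, runs over exons 3 to 6 in both genes, and covers coding bases 707 to 1006 of transcript Arid3a-201 and 617 to 916 of Arid3b-209, 5′ to 3′ with capitals where the genes differ:
Arid3a: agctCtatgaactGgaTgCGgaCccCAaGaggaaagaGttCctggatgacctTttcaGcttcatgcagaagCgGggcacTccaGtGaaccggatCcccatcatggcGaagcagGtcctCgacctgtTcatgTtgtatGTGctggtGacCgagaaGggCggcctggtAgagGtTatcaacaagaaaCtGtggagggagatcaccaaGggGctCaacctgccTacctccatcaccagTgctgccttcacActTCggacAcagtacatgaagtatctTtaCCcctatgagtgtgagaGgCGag
Arid3b: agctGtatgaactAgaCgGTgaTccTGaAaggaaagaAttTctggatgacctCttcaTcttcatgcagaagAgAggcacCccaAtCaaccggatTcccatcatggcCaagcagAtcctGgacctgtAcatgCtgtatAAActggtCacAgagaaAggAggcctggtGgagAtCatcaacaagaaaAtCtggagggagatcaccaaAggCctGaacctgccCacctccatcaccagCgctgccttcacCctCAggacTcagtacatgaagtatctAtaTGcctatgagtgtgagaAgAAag
The genes have the same base at 249 of these 300 positions (83%), and no more than 17 bases in a row are identical between the compared Arid3a and Arid3b transcripts. The stretch ends 3882 bases before the end of Arid3a-201 and 2951 bases before the end of Arid3b-209, away from the transcript ends that 3′ libraries read. Over all pairs of the 9 genes, the longest identical run was 27 bases, between Arid3a and Arid5b.

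Of 25554 cell barcodes, 5594 (21.9%) passed the limits of at least 1000 genes and at most 15% mitochondrial UMIs: 2134 and 1550 cells of the Arid3a cKO libraries and 1910 WT cells. The kept cells held between 58169310 and 70922480 UMIs per library, with a median of 29895 to 35764 UMIs per cell. Epcam was at 1665 to 1969 and Vil1 at 470 to 501 CPM (UMIs of a gene per 1000000 UMIs of the same cells). Markers of cells outside the sort gate were not absent: a list of 10 immune genes summed to 2.69 and 11.2 CPM in Arid3a cKO 1 and 2 and to 18.2 CPM in WT, and a list of 8 stromal and endothelial genes summed to 0.324, 4.25 and 0.367 CPM in the same order. Pairs of libraries shared 11 to 18 barcodes, and at most 2 kept cells.

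Arid3a, the deleted gene, was the member with the largest difference between the genotypes. Its 42 UMIs in Arid3a cKO 1 gave 0.592 CPM (exact Poisson 95% interval 0.427 to 0.8005), its 52 UMIs in Arid3a cKO 2 gave 0.894 CPM (0.668 to 1.17), and its 161 UMIs in WT gave 2.57 CPM (2.19 to 2.997). These intervals cover counting error only. Both Arid3a cKO libraries were below WT and the intervals of the genotypes did not overlap, which also held for Arid1a. The share of all genes without such overlap was not counted. In edgeR's quasi-likelihood test over all epithelial cells the log2 ratio of Arid3a cKO to WT was -1.76 (SE 0.30, adjusted p = 0.0447). The call was lost with RLE scaling (adjusted p = 0.109), with wider limits on cells (adjusted p = 0.0816) and in DESeq2 (adjusted p = 0.184), at log2 ratios of -1.74 to -1.76, and it was kept without a filter on low counts and without the cells of highest doublet scores. Leaving out Arid3a cKO 1 gave a log2 ratio of -1.47 and leaving out Arid3a cKO 2 gave -2.09, with no test. The floxed exons are not given in the sources used here and UMIs are read at the 3′ end, so the counts follow the amount of Arid3a transcript and do not check the excision itself.

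Of the 9 members, Arid3a alone passed the test over all epithelial cells, where 0.696% of 16670 genes were called, 40 higher (0.240%) and 76 lower (0.456%) in Arid3a cKO. Counts over bulk sums of this kind cannot tell fewer cells that use a gene from less RNA per cell. Arid3b was at 3.54 and 3.11 CPM in Arid3a cKO 1 and 2 and at 4.10 CPM in WT, a log2 ratio of -0.26 (SE 0.18, edgeR adjusted p = 0.618). Thus in the sums over all epithelial cells the closest relative of Arid3a was not higher in either Arid3a cKO library. This did not hold in every class of cells described below.

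**Figure D1:**
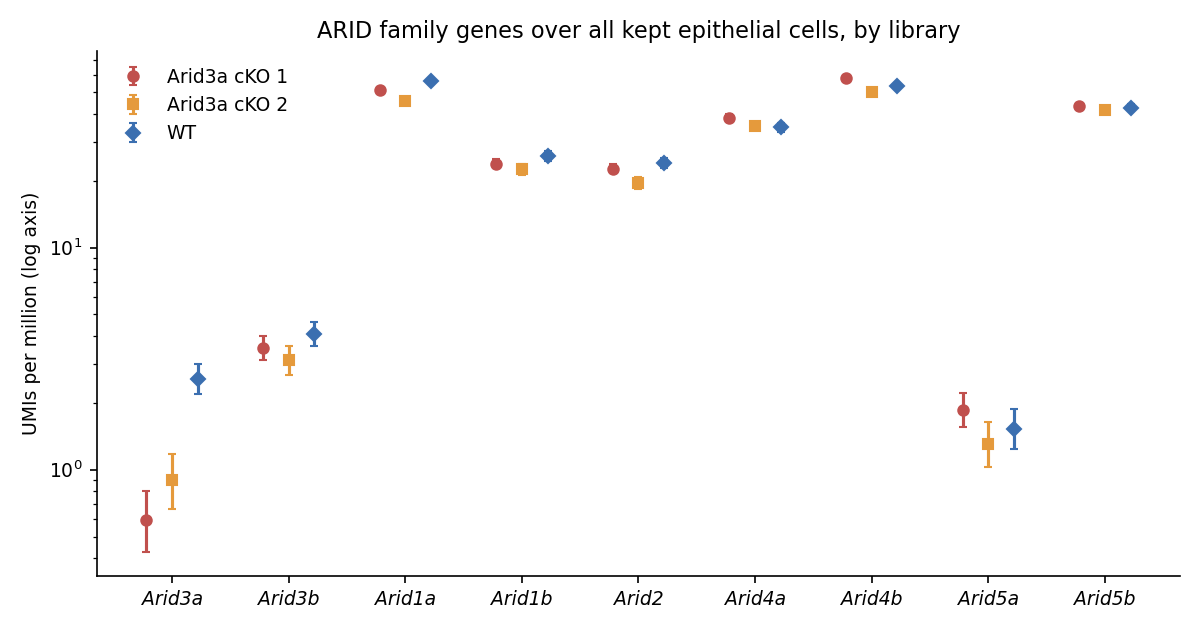
CPM (log axis) of the 9 ARID genes in all kept epithelial cells of each library, with exact Poisson 95% intervals. Arid3a is at 0.592 and 0.894 in the Arid3a cKO libraries and 2.57 in WT, whereas for the other genes the 3 libraries lie closer together on this axis. The intervals of Arid1a (51.1 and 45.9 in the Arid3a cKO libraries, 56.4 in WT) also do not overlap between the genotypes. Nor do they overlap between the Arid3a cKO libraries, and the share of all genes without overlap was not counted.

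Among the subunits of the BAF and PBAF complexes, Arid1a (ENSMUSG00000007880, chr4:133679008-133756769, minus strand) was at 51.1 and 45.9 CPM in Arid3a cKO 1 and 2 and at 56.4 CPM in WT. In that order, Arid1b (ENSMUSG00000069729, chr17:4994332-5347656, plus strand) was at 23.9, 22.5 and 25.9 CPM. Arid2 (ENSMUSG00000033237, chr15:96287518-96404992, plus strand) was at 22.7, 19.6 and 24.0 CPM. Each of these genes was lowest in Arid3a cKO 2 and highest in WT. For Arid1a the intervals (49.5 to 52.8, 44.1 to 47.6 and 54.5 to 58.2 CPM) did not overlap between the genotypes. Those of the Arid3a cKO libraries did not overlap each other either, and the share of all genes without overlap was not counted. The log2 ratios of Arid3a cKO to WT were -0.18 for Arid1a (SE 0.10), -0.12 for Arid1b (SE 0.10) and -0.15 for Arid2 (SE 0.11), and none passed in edgeR (adjusted p = 0.559, 0.689 and 0.657).

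The retinoblastoma-binding members had ratios slightly above 0. Arid4a (ENSMUSG00000048118, chr12:71015990-71098592, plus strand) was at 38.5, 35.4 and 34.7 CPM in the same order of libraries, a log2 ratio of 0.12 (SE 0.10, edgeR adjusted p = 0.690). Arid4b (ENSMUSG00000039219, chr13:14063232-14199603, plus strand) was at 58.3, 50.1 and 53.5 CPM, with WT between the Arid3a cKO libraries, and its log2 ratio was 0.06 (SE 0.11, edgeR adjusted p = 0.882).

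Of the ARID5 genes, Arid5a (ENSMUSG00000037447, chr1:36307733-36324029, plus strand) had few UMIs, 132, 76 and 96, or 1.86, 1.31 and 1.53 CPM. Arid5b (ENSMUSG00000019947, chr10:68092520-68278740, minus strand) was at 43.4, 41.8 and 42.7 CPM. In both genes WT lay between the Arid3a cKO libraries, and the log2 ratios were 0.09 for Arid5a (SE 0.28, edgeR adjusted p = 0.930) and 0.04 for Arid5b (SE 0.10, edgeR adjusted p = 0.920). The summed level of all 9 members was 244 CPM in Arid3a cKO 1 (interval 240 to 248), 220 CPM in Arid3a cKO 2 (217 to 224) and 245 CPM in WT (241 to 249).

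Cells were next divided into classes, to ask where each member is used and whether the genotypes differ within a class. Clustering without the members gave 13 clusters, of which 11 could be named from marker genes: 1078 ISC-like, 703 TA-like, 2138 enterocyte-like, 393 goblet-like, 80 Paneth-like, 222 EEC-like and 100 tuft-like cells. The ISC-like cluster was led by the stem cell genes Olfm4 and Lgr5 together with DNA replication genes (Ung, Mcm2, Mcm3, Mcm4, Cdc6 and E2f1). Of the enterocyte-like cells, 58 formed a cluster led by the interferon-induced genes Ifit3 and Ifi44. A further 746 cells, led by 1500035N22Rik and Vstm2l, and 134 cells, led by Gm42418 and Mir6236 with a median of 11.8% mitochondrial UMIs, stayed unnamed. Arid3a cKO 2 had only 17 Paneth-like cells. The EEC-like class had a larger cluster of 175 cells and a smaller one of 47 cells, led by Ghrl and Gip, whose median UMI number was 1.70 times that of its libraries.

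Arid5b had the sharpest pattern. It was at 108, 108 and 104 CPM in ISC-like cells of Arid3a cKO 1, Arid3a cKO 2 and WT, at 89.1, 82.8 and 92.3 CPM in TA-like cells, and at 3.59, 2.31 and 2.20 CPM in enterocyte-like cells. The ranges of the 3 libraries did not overlap between ISC-like and TA-like cells, nor between TA-like cells and the next class, the EEC-like cells (57.03, 76.8 and 42.0 CPM). Tuft-like cells followed at 41.0, 34.1 and 18.9 CPM, just below the EEC-like range, and goblet-like cells were at 23.9, 13.9 and 17.9 CPM, overlapping the tuft-like range. The step from ISC-like to TA-like cells depended on how the ISC-like cluster was divided. At a finer resolution (0.8), 382 cells led by Slc1a2 and Lgr5 had Arid5b at 181, 187 and 180 CPM. A cluster of 487 cells led by Cdc6 and Ung had 84.6, 80.0 and 78.1 CPM, and had no ISC marker among its top 50 genes. The TA-like clusters, of 507 and 398 cells, had 83.6 to 92.1 and 72.0 to 82.2 CPM, so that Arid5b stood apart in the Lgr5-led cells, and the Cdc6-led cells overlapped the TA-like clusters. In the unnamed cells led by 1500035N22Rik and Vstm2l Arid5b was at 23.0, 27.3 and 22.01 CPM.

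With ISC-like and TA-like cells pooled as crypt cells, Arid5b was 27.9-, 41.1- and 44.7-fold higher in crypt than in enterocyte-like cells of Arid3a cKO 1, Arid3a cKO 2 and WT. On a log2(CPM + 1) scale the mean difference was 4.76 (SD 0.26, n = 3 libraries). Of 11907 genes with a mean of at least 1 CPM, 97 had a larger difference, and the median over these genes was 0.50. This is a description, since the classes were made from the same cells, although without the members.

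Arid1a was also higher in crypt cells, at 73.9, 63.1 and 75.6 CPM against 34.7, 32.9 and 41.9 CPM in enterocyte-like cells, a mean difference of 0.94 (SD 0.12) on the same log2(CPM + 1) scale. The differences of Arid4a (0.80, SD 0.02), Arid2 (0.74, SD 0.07), Arid1b (0.49, SD 0.16) and Arid4b (0.34, SD 0.07) were above 0 in every library. So were those of 61.9% of the 11907 genes, and the values of Arid1b and Arid4b were at or below the median of 0.50. Arid5a differed by 0.87 (SD 0.21) on this scale, which understates the ratio of low genes. It was at 2.01, 1.53 and 1.97 CPM in crypt cells and 0.604, 0.625 and 0.421 CPM in enterocyte-like cells, or 3.32-, 2.45- and 4.67-fold higher. With a pseudocount of 0.1 CPM its difference was 1.58, above that of Arid1a (0.96), and the UMIs in enterocyte-like cells were 16, 13 and 9.

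**Figure D2:**
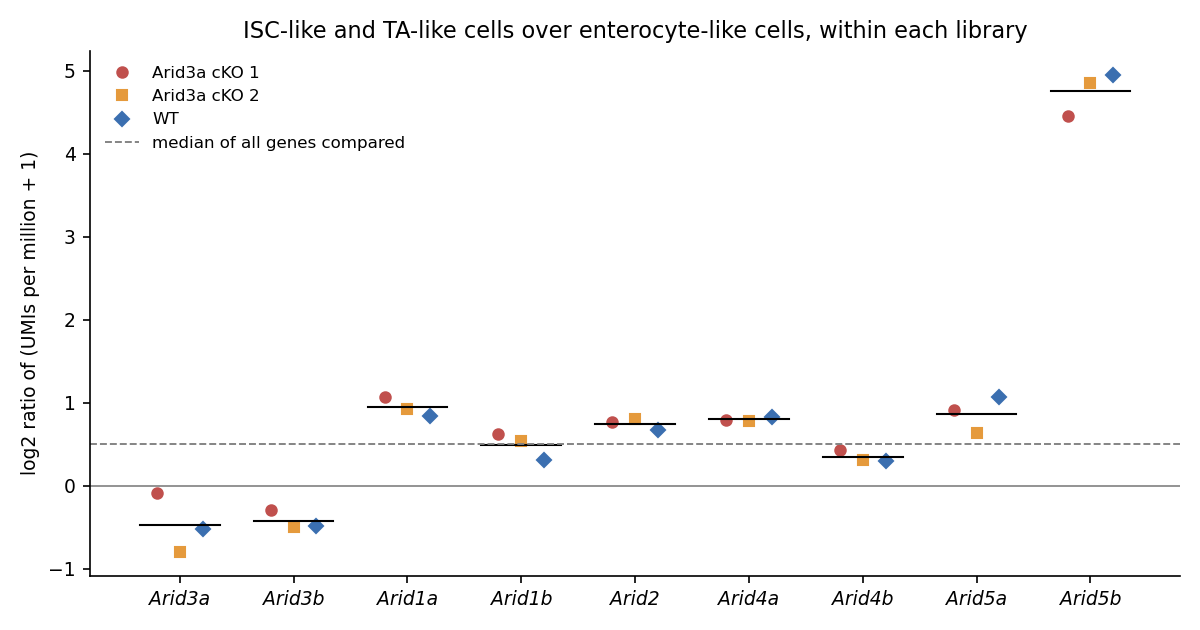
Difference of log2(CPM + 1) between crypt (ISC-like and TA-like) and enterocyte-like cells for each ARID gene, with 1 point per library, the mean as a bar, and the median over 11907 genes as a dashed line at 0.50. Arid5b stands at a mean of 4.76, and Arid3a (mean -0.47) and Arid3b (mean -0.43) are below 0 in all 3 libraries. Arid3a in Arid3a cKO 1 is at -0.09, from 9 and 12 UMIs.

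The ARID3 genes were arranged the other way, lower in crypt cells than in enterocyte-like cells in each library. Arid3b was at 2.77, 2.06 and 2.89 CPM in crypt cells and 3.63, 3.32 and 4.45 CPM in enterocyte-like cells, a mean difference of -0.43 (SD 0.11) on the log2(CPM + 1) scale. Arid3a was at 0.361, 0.239 and 1.23 CPM in crypt cells and 0.453, 1.15 and 2.20 CPM in enterocyte-like cells, a mean of -0.47 (SD 0.35) on that scale and of -1.15 (SD 1.01) as the log2 of the plain ratio. In these data 29.9% of the 11907 genes were lower in crypt cells in every library. In WT alone, the Arid3a values rested on 28 UMIs in crypt cells and 47 in enterocyte-like cells, and the log2 of their plain ratio was -0.85 (-0.52 with the pseudocount of 1 CPM). In Arid3a cKO 1 they rested on 9 and 12 UMIs, with a difference of -0.09 on the log2(CPM + 1) scale. Those of Arid3a cKO 2 rested on 5 and 24 UMIs (-0.80), so the direction of Arid3a in these libraries is uncertain.

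In WT, Arid3a was highest in tuft-like and EEC-like cells, followed by goblet-like cells. It had 9 UMIs in 41 tuft-like cells (18.9 CPM, interval 8.65 to 35.9), 37 UMIs in 114 EEC-like cells (13.4 CPM, 9.44 to 18.5) and 23 UMIs in 142 goblet-like cells (5.63 CPM, 3.57 to 8.45). Enterocyte-like cells were at 2.20 CPM (1.62 to 2.93), ISC-like cells at 1.69 CPM (1.03 to 2.62) and TA-like cells at 0.724 CPM (0.313 to 1.43). Thus the intervals of tuft-like and EEC-like cells overlapped each other and lay above those of goblet-like, enterocyte-like, ISC-like and TA-like cells. At the finer resolution (0.8), WT Arid3a was at 0.306 CPM in the Lgr5-led and 1.61 CPM in the Cdc6-led ISC-like cluster. The TA-like clusters were at 0.130 and 2.82 CPM. At the main resolution, WT had only 28 Arid3a UMIs in ISC-like and TA-like cells together, so the order of these cells is not settled. Paneth-like cells had no Arid3a UMI in any library, which allows up to 0.919 CPM in WT by a floor of 3 counts (exact Poisson upper bound 1.13 CPM). In these cells defensins, Lyz1 and Itln1 took 75.8% of UMIs, against at most 0.641% in any other class, which leaves a smaller share to all other genes there.

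The EEC-like values depended on the smaller cluster. In the larger EEC-like cluster Arid3a was at 21.6 CPM in WT (32 UMIs, interval 14.7 to 30.4), and in the smaller one at 3.92 CPM (5 UMIs, 1.27 to 9.15). The Arid3a cKO libraries had 4.77 and 6.18 CPM in the larger cluster, from 4 and 5 UMIs. Both were below the lower bound of WT.

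In Arid3a cKO 1 and Arid3a cKO 2, Arid3a was at 3.04 and 4.12 CPM in EEC-like cells, 2.94 and 2.36 CPM in goblet-like cells, 0.427 and 0.296 CPM in ISC-like cells and 0.276 and 0.186 CPM in TA-like cells. The order from EEC-like to goblet-like, enterocyte-like, ISC-like and TA-like cells was that of WT in both. Its last step, from ISC-like to TA-like cells, was not kept in the finer clusters of WT, which held few Arid3a UMIs. The intervals of neighbours in that order overlapped, except those of goblet-like and enterocyte-like cells in Arid3a cKO 1. Tuft-like cells had 1 UMI and 0 UMIs there. WT was the highest of the 3 libraries in each of these classes and in enterocyte-like cells. With the 7 named classes counted at equal weight in every library, Arid3a had a log2 ratio of Arid3a cKO to WT of -2.31 (no test), from levels of 1.30, 1.16 and 6.08 CPM. Without the tuft-like class, which rests on 9, 1 and 0 UMIs in WT and the Arid3a cKO libraries, it was -1.63, from 1.19, 1.35 and 3.94 CPM.

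**Figure D3:**
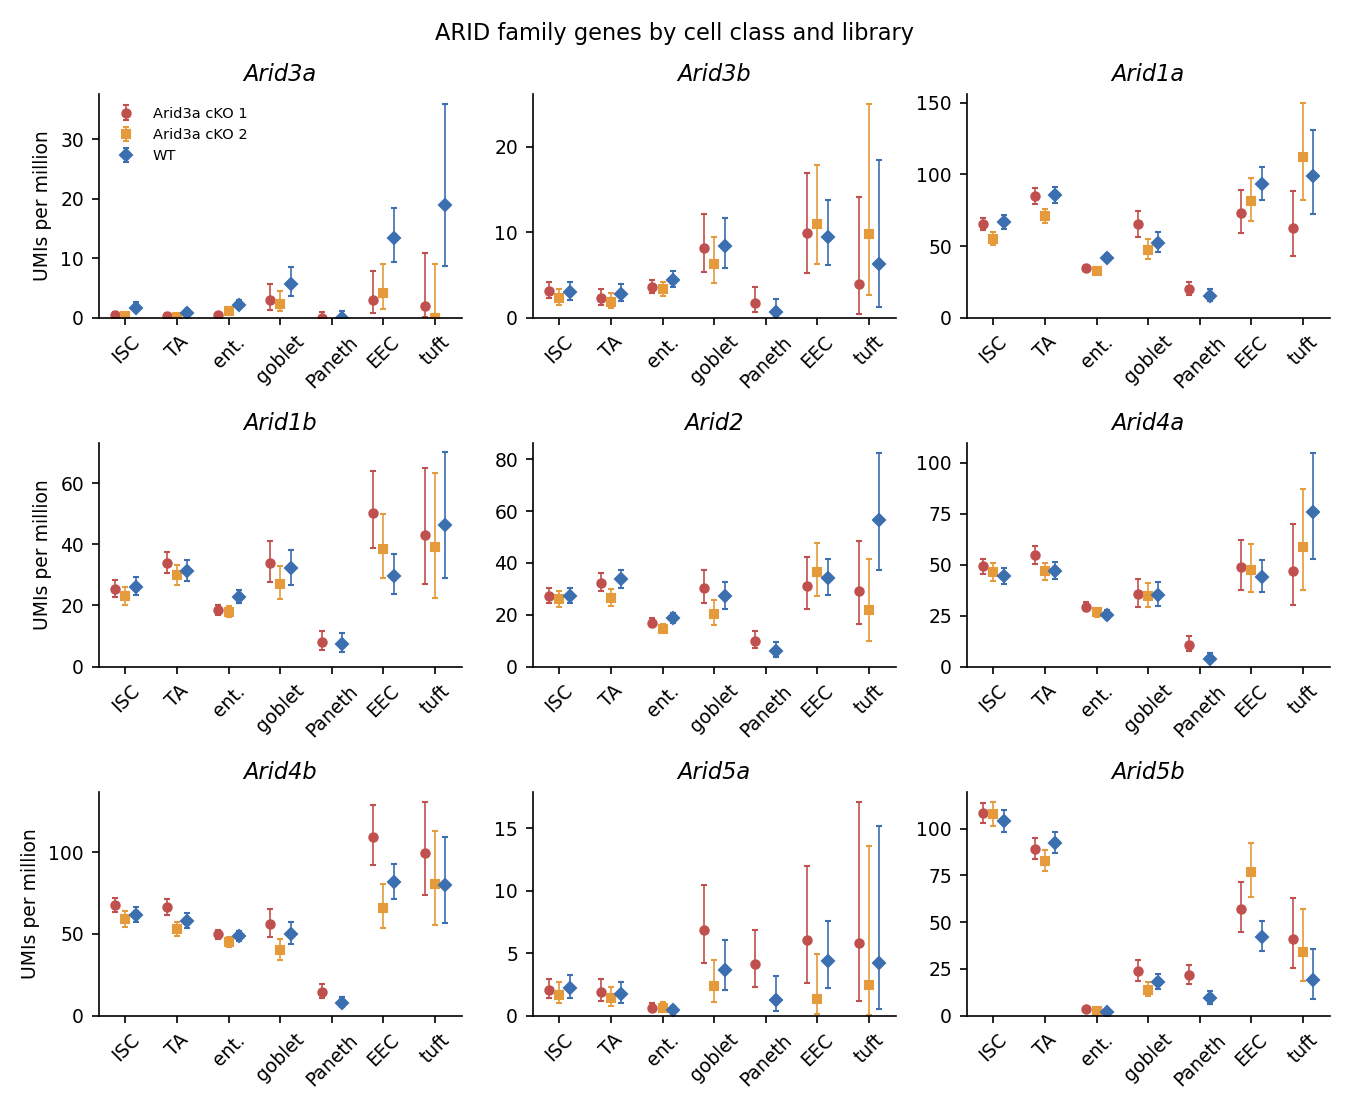
CPM of each ARID gene in ISC-like, TA-like, enterocyte-like (ent.), goblet-like, Paneth-like, EEC-like and tuft-like cells, with 1 point per library and exact Poisson 95% intervals (classes with under 20 cells in a library are left out). Arid5b is highest in ISC-like cells of all 3 libraries, and WT Arid3a is highest in EEC-like and tuft-like cells.

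Tuft-like or EEC-like cells had the highest mean level for 7 members: Arid3a, Arid3b, Arid1a, Arid1b, Arid2, Arid4a and Arid4b. The share of all genes highest in these classes was not counted, so this is not shown to be particular to the family. For Arid3a the tuft-like mean of 6.95 CPM rested on 10 UMIs and ranged from 0 to 18.9 CPM over the libraries, overlapping EEC-like cells. For Arid1b and Arid2 the ranges of tuft-like and EEC-like cells overlapped, as did those of EEC-like and TA-like cells. Arid3b was highest in EEC-like cells, at 9.88, 11.0 and 9.42 CPM, followed by goblet-like cells at 8.18, 6.30 and 8.33 CPM, and these ranges did not overlap. Arid1a had mean levels of 91.1 CPM in tuft-like, 82.6 CPM in EEC-like and 80.3 CPM in TA-like cells, with overlapping ranges. ISC-like cells were at 62.3 CPM, below the range of TA-like cells. At the finer resolution the Lgr5-led cells had Arid1a at 75.3, 65.6 and 77.1 CPM. This was above the smaller TA-like cluster (68.5, 60.2 and 67.7 CPM) and below the larger one (84.6, 70.2 and 88.4 CPM) in each library. Arid4b stood at 86.6 CPM in tuft-like and 85.6 CPM in EEC-like cells, against 47.7 to 62.7 CPM in goblet-like, ISC-like, TA-like and enterocyte-like cells. Arid4a was at 60.3 CPM in tuft-like cells, and at 49.5, 46.6 and 46.5 CPM in TA-like, EEC-like and ISC-like cells, and the ranges of these classes overlapped. The summed level of the 9 members ranged over the libraries from 334 to 406 CPM in tuft-like, 351 to 389 CPM in EEC-like, 313 to 366 CPM in TA-like and 321 to 349 CPM in ISC-like cells, and the order of these 4 classes differed between libraries. It was 195 to 263 CPM in goblet-like, 144 to 167 CPM in enterocyte-like and 29.1 to 91.1 CPM in Paneth-like cells.

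Leaving out the smaller EEC-like cluster raised the EEC-like mean from 6.85 to 10.8 CPM for Arid3a, from 82.6 to 111 CPM for Arid1a and from 85.6 to 116 CPM for Arid4b. The EEC-like mean then stood above the tuft-like mean for every member except Arid4a, whereas with both clusters it did so for Arid3b and Arid5b alone, so the order of EEC-like and tuft-like cells depends on that cluster. Tuft-like cells had a median UMI number 0.297 times that of their libraries, and numbered 20 to 41 per library.

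Within the enterocyte-like class, cells were ordered by a score of villus base and villus tip landmark genes and divided into 3 ranges in each library. Arid5b was lower at the tip than at the base in every library, going from 4.19 to 2.48 CPM in Arid3a cKO 1, from 3.30 to 0.791 CPM in Arid3a cKO 2 and from 3.80 to 0.298 CPM in WT, where the tip range held 2 UMIs. On the log2(CPM + 1) scale the mean difference of tip to base was -1.24 (SD 0.65, n = 3 libraries), and as a plain ratio of CPM it was -2.16 on the log2 scale (SD 1.46). For Arid3a it was 0.10 on the log2(CPM + 1) scale (SD 0.36), and in WT the base, middle and tip ranges were at 2.03, 2.48 and 2.08 CPM. These rested on 15, 18 and 14 UMIs, with overlapping intervals (1.14 to 3.35, 1.47 to 3.92 and 1.14 to 3.50 CPM). A gradient of Arid3a within that spread could not be seen here. On the log2(CPM + 1) scale the other 7 members had means between -0.32 (Arid3b) and -0.05 (Arid5a). A range of a score is not a cell type, and the cells came from a crypt preparation.

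**Figure D4:**
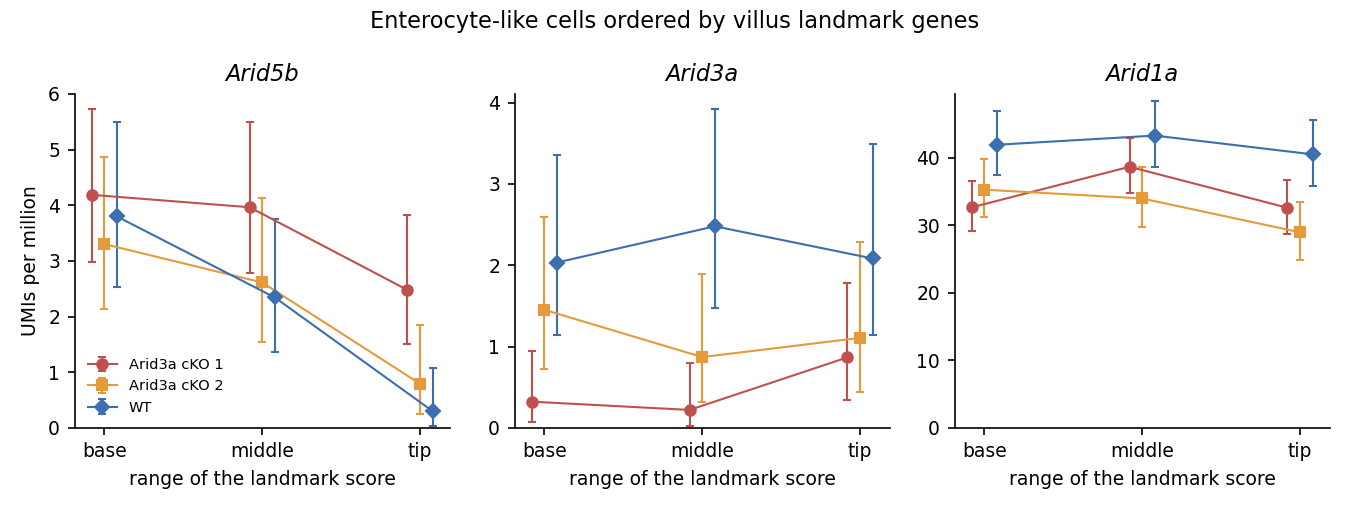
CPM of Arid5b, Arid3a and Arid1a in enterocyte-like cells of each library, in 3 ranges of a landmark score from villus base to tip, with exact Poisson 95% intervals. Arid5b is lower at the tip than at the base in all 3 libraries (mean difference of log2(CPM + 1) -1.24). Arid3a in WT is at 2.03, 2.48 and 2.08, from 15, 18 and 14 UMIs, with overlapping intervals.

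The genotypes were then compared within classes. In enterocyte-like cells edgeR called 2.58% of 12417 genes (1.07% higher and 1.51% lower in Arid3a cKO) and none of the 9 members, of which 3 had an unadjusted p under 0.05, as had 13.7% of all genes tested. DESeq2 called none, with 0 members under 0.05 before adjustment. Arid3a was at 0.453, 1.15 and 2.20 CPM, a log2 ratio of -1.49 (SE 0.465, edgeR adjusted p = 0.103). Without a filter on low counts and with wider limits on cells the edgeR test did call it (adjusted p = 0.00472 and 0.0347). Without Arid3a cKO 1 the log2 ratio was -0.89, and without Arid3a cKO 2 it was -2.28, so the size in enterocyte-like cells rested on which library was used.

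Also in enterocyte-like cells, Arid1a was lower in both Arid3a cKO libraries than in WT, with a log2 ratio of -0.30 (SE 0.11, edgeR adjusted p = 0.162), as was Arid1b at 18.5 and 17.99 against 22.9 CPM, with -0.31 (SE 0.13, edgeR adjusted p = 0.275). Neither passed the test. Arid2 (-0.24, SE 0.14), Arid3b (-0.34, SE 0.24), Arid4a (0.16, SE 0.12), Arid4b (-0.03, SE 0.10), Arid5a (0.55, SE 0.67) and Arid5b (0.45, SE 0.32) did not pass either, and the last 2 rested on 9 and 47 UMIs in WT.

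In ISC-like and TA-like cells together, edgeR called 1.42% of 14330 genes (0.593% higher, 0.830% lower) and none of the members, with 1 under an unadjusted p of 0.05 (7.68% of all genes) and 0 in DESeq2. That member was Arid3a, at 0.361, 0.239 and 1.23 CPM, with a log2 ratio of -1.99 (SE 0.63, edgeR adjusted p = 0.0915). Arid5b, the member with most UMIs in these cells, was at 99.98, 94.9 and 98.3 CPM, a log2 ratio of -0.01 (SE 0.14, edgeR adjusted p = 0.998). Arid1a was at 73.9, 63.1 and 75.6 CPM, with -0.14 (SE 0.15), and the remaining members had log2 ratios between -0.24 and 0.11.

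Goblet-like cells gave 1.51% of 11059 genes called (0.796% higher, 0.714% lower) and none of the members, with 0 under an unadjusted p of 0.05 in edgeR and 0 in DESeq2. Arid3a was at 2.94, 2.36 and 5.63 CPM, a log2 ratio of -1.09 (SE 0.61, edgeR adjusted p = 0.628), and the others lay between -0.21 (Arid3b) and 0.27 (Arid5a). The difference of the genotype effect between enterocyte-like cells and ISC-like and TA-like cells was tested as an interaction with the library as a block. It was called for 0.368% of 14672 genes and for no member, with 0 members under an unadjusted p of 0.05. For Arid3a it was 0.45 on the log2 scale (SE 0.69, edgeR adjusted p = 0.976).

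**Figure D5:**
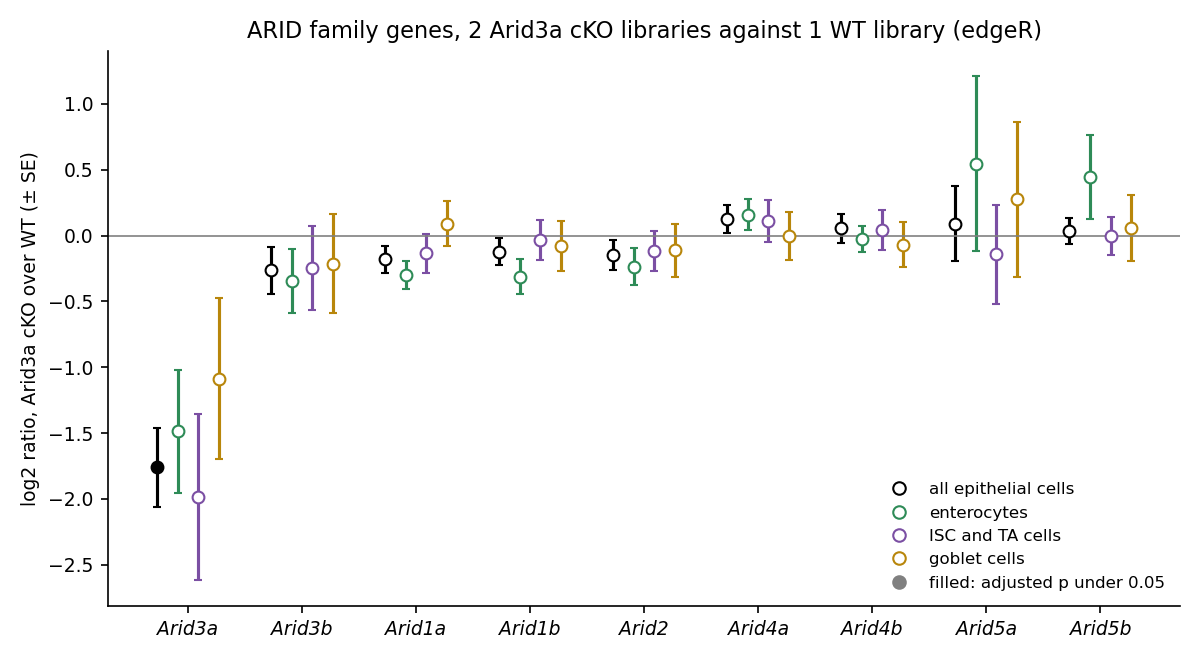
Log2 ratio of 2 Arid3a cKO libraries to 1 WT library for each ARID gene, with its SE, in all epithelial cells, enterocyte-like, ISC-like and TA-like, and goblet-like cells (edgeR). Only Arid3a over all epithelial cells (-1.76, filled point) had an adjusted p under 0.05, and its other values were -1.49, -1.99 and -1.09.

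Immune RNA, which like Arid3a was highest in WT (18.2 CPM) and lowest in Arid3a cKO 1 (2.69 CPM), and the barcodes left out were looked at beside Arid3a. The part of immune RNA in the Arid3a difference was not tested. A UMI of the 10 immune genes was also found in 0 of 41 and 4 of 47 cells with an Arid3a UMI in the Arid3a cKO libraries 1 and 2, and in 6 of 135 such WT cells. Of the cells without one, 48 of 2093, 29 of 1503 and 56 of 1775 did. The barcodes that failed the limits on cells held Arid3a at 1.46 and 2.00 CPM in Arid3a cKO 1 and 2 and at 2.73 CPM in WT, from 51, 73 and 182 UMIs. In both Arid3a cKO libraries this was above the level in kept cells (0.592 and 0.894 CPM). The part of RNA from outside the kept cells in the Arid3a UMIs of the Arid3a cKO libraries was not tested.

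Genes whose products work with ARID proteins were counted from lists. None of the 4 tested of 5 other genes with an ARID domain (Arid3c, Jarid2, Kdm5a, Kdm5b and Kdm5c), none of 24 BAF and PBAF genes and none of 14 SIN3 and deacetylase genes passed over all epithelial cells, with 1, 2 and 1 of them under an unadjusted p of 0.05 in edgeR and none called in DESeq2. Of all genes tested, 11.0% were under that unadjusted p. The median log2 ratios of these lists were -0.02, -0.02 and 0.07, beside a median of -0.0029 over all 16670 genes. Smarca4 and Smarcb1, the ATPase and a core subunit of BAF, had log2 ratios of -0.08 (SE 0.10) and -0.03 (SE 0.10), and the PBAF subunits Pbrm1 and Brd7 had 0.14 (SE 0.10) and 0.03 (SE 0.10). Sin3a, Hdac1 and Hdac2 had -0.13, 0.09 and 0.04, and Jarid2 and Kdm5b had -0.08 and 0.26.

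Of 13 factors that bind or work with ARID3 and ARID5 proteins, 12 were tested and 0 passed over all epithelial cells, with 2 under an unadjusted p of 0.05 in edgeR (11.0% of all genes) and 0 called in DESeq2. E2f1, Rb1 and Phf2 had log2 ratios of -0.19, 0.15 and -0.18 there. In enterocyte-like cells, where 2.58% of all genes were called, 1 of 12 passed and was lower in Arid3a cKO. This was Zc3h12a, which encodes an RNase that degrades cytokine mRNAs, some of which ARID5A protects. It was at 15.7 and 14.5 CPM in the Arid3a cKO libraries and 22.9 CPM in WT, a log2 ratio of -0.59 (SE 0.14, edgeR adjusted p = 0.0145), and DESeq2 did not call it (adjusted p = 0.816). Over all epithelial cells its log2 ratio was 0.15 (edgeR adjusted p = 0.638).

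Finally, each member was compared with 9854 genes by its level over 20 sums of cells (7 classes in up to 3 libraries), as Pearson's r of log2(CPM + 1) centred within libraries. The sums share libraries and class composition, and the values are a description. Nearest to Arid5b were Apex1 (r = 0.98), Aqp4 (0.98) and Hmgn1 (0.97), and nearest to Arid3a were Ptpn23 (0.89), Slc38a10 (0.89) and Phf1 (0.88). For Arid3b they were Fndc3a, Naglu and Gse1 (0.94 to 0.95), and for Arid5a Ckap4, Tspan1 and Selenom (0.86 to 0.87). Near Arid1a were Mepce (0.97) and Trrap (0.96). Arid1b was nearest to Rnf6, Myh9 and Rnf20 (0.97 to 0.98) and Arid2 to Rprd2, Rsf1 and Pcif1 (0.96 to 0.98). Arid4a was nearest to Ttc5, Ctbp2 and Zfp207 (0.98 to 0.99) and Arid4b to Ddx5, Stx16 and Kmt2e (0.99). Within the family, r was 0.94 between Arid1a and Arid4a, where the median r of Arid1a with all genes compared was 0.68. Without Paneth-like cells, in which defensins, Lyz1 and Itln1 took most UMIs, these values were 0.89 and 0.37. Between Arid3a and Arid5b r was -0.02, and -0.15 without Paneth-like cells.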

How the data were processed

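The authors aligned and counted reads with Cell Ranger and deposited raw UMI counts per gene and barcode for each library, with gene identifiers and symbols. The genome build used for counting is not clear from the sources used here. Gene positions were taken from GENCODE M21 (GRCm38) by identifier, which matched 51633 of 51912 genes. Members and lists were chosen with earlier results of these data known.

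Barcodes with at least 1000 genes and at most 15% mitochondrial UMIs were kept. Doublets were scored with Scrublet in scanpy (1.11.5) and not removed in the main analysis, and a repeat left out the highest 5%. Its automatic threshold changed with the number of computing threads and was not used. Libraries were integrated (CCA) and clustered in Seurat (5.3.0, 30 components, resolution 0.3) without members and partner genes. Clusters were called X-like from marker lists by a rule set after the clusters were seen.

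Deposited counts were summed per library and class, and tested with edgeR (4.0.16, R 4.3.3) by its quasi-likelihood test with TMM scaling, filterByExpr and Benjamini-Hochberg adjustment over all genes tested. Genes were called at an adjusted p under 0.05. With 1 WT library there was 1 residual degree of freedom. DESeq2 (1.42.0) was an alternative. In data simulated for all epithelial cells (16670 genes), 64% of genes changed 2-fold and 91% of those changed 4-fold were called, and for goblet-like cells (11059 genes) 39% and 96%. All genes were simulated with the same dispersion, and WT varied as the Arid3a cKO libraries did. The shares are taken over genes of all levels and do not give the power for a low gene such as Arid3a. Intervals are exact Poisson 95% and cover counting error only. Kept UMIs were 58169310 to 70922480 per library. All 9 members, called or not, 12 reference partner genes, each partner gene called and the 3 genes most like each member were named, except for an item that is not reported here.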

Additional observations from a re-analysis of the deposited data

Results flagged for a closer look

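In the barcodes that failed the limits on cells, which entered no genotype test under those limits, Arid4a was higher in both Arid3a cKO libraries than in WT. These barcodes held 27.2 CPM in Arid3a cKO 1 (exact Poisson 95% interval 25.5 to 28.9), 29.6 CPM in Arid3a cKO 2 (27.9 to 31.5) and 23.8 CPM in WT (22.6 to 24.99), and the mean of the Arid3a cKO libraries was 28.4 CPM. The intervals of the genotypes did not overlap and cover counting error only. Arid4a was picked from all members measured in these barcodes. How many of all genes lack such overlap there was not counted. The difference is therefore not shown to be particular to Arid4a. In kept cells the levels were 38.5, 35.4 and 34.7 CPM, and the difference did not pass the edgeR test (adjusted p = 0.690).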

How the results depend on the processing

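No paired analysis was possible because just 1 replicate number occurs in both groups. Over all epithelial cells the count of members called went from 1 to 0 with DESeq2, RLE scaling or wider limits (at least 500 genes, at most 25% mitochondrial UMIs). In enterocyte-like cells it went from 0 to 1 without a filter on low counts or with wider limits. The genes called over all epithelial cells went from 116 to 60 with RLE scaling, 677 without a filter and 703 without the 5% highest doublet scores. With DESeq2 they went from 320 to 79 in enterocyte-like, 204 to 41 in ISC-like and TA-like, and 167 to 13 in goblet-like cells, and the last were 58 with wider limits and 281 without the highest doublet scores. Partner genes called in enterocyte-like cells went from 1 to 0 with DESeq2 and to 2 (with Stat3) without the highest doublet scores. Arid5b in ISC-like cells moved from 107 CPM to 118 at resolution 0.8, 117 without integration, 113 with wider limits and 120 without the highest doublet scores. Its crypt to enterocyte log2 difference moved from 4.76 to 5.15 with wider limits, 5.16 with a pseudocount of 0.1 CPM and 3.74 with 5 CPM. In alternatives with a test, the uncalled log2 ratios that changed sign were Arid5b in ISC-like and TA-like cells (0.054) and Arid4a in goblet-like cells (0.019) with wider limits, and Arid1b in goblet-like cells (0.10) without the highest doublet scores. Causes were not tested, except that without a filter more genes are tested. At equal class weights (no test) so did Arid1b (0.02) and Arid4a (-0.03). Of 72 log2 ratios without an Arid3a cKO library, 13 changed sign, to values between -0.61 and 0.14, and none of these was of Arid3a. Leaving out an Arid3a cKO library left no residual degrees of freedom, so those values have no test. Leave-one-out over classes and the villus ranges, the repeats without the smaller EEC-like cluster, without tuft-like cells at equal weight and without Paneth-like cells, the levels in separate crypt clusters and the partner-gene alternatives were chosen after seeing the data. Few Arid3a UMIs (5 to 47 per library in the classes tested) limit its precision.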
